A study of Mus musculus with 6 samples.

Results

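The genes of the synaptic vesicle and its release machinery were followed in wild-type mouse neural stem progenitor cells, 24 h after PTN or PBS. They are the rows of the deposited gene table whose symbols name a synaptotagmin, synapsin, synaptophysin or synaptoporin, synaptogyrin, SV2 protein, Snap25 or Snap91, RIM or RIM-binding protein, Unc13 protein, complexin, Doc2 protein, syntaxin-binding protein, Bsn, Pclo or Rph3a. This gave 56 of the 22322 genes in the table, and 45 of them had a count of 10 or more in 3 libraries. RNA sequencing libraries were made from 3 PTN samples and 3 Control samples, the Control samples having received PBS. PTN is taken to stand for pleiotrophin, a secreted heparin-binding growth factor, although the labels do not spell it out. All 6 samples are wild type in genotype and were taken at the same time, and the series title places the addition of PTN in a conditioned medium setting. Dose, mouse age and strain, and cell passage were not stated. Whether the 3 replicates of a group were separate cultures or animals is not labelled. The p-values therefore reflect no more than the variation among these libraries, and how much of it is technical was not tested. Y-linked RNA differed between libraries of the same group. It was 30.3, 74.2 and 7.96 CPM (counts scaled by library size) in PTN 1, PTN 2 and PTN 3. In Control 1, Control 2 and Control 3 it was 49.3, 102 and 80.3 CPM. Whether the share of male cells differed between libraries was not tested.

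A synaptic vesicle carries transmitter to the active zone, a protein scaffold at the presynaptic membrane. There it is tethered, primed by Unc13 proteins and held with its SNARE proteins partly assembled, until calcium entering through nearby channels is sensed by a synaptotagmin and the membranes fuse. Complexins bind the assembled SNARE complex, syntaxin-binding proteins guide its assembly, and synapsins hold the reserve vesicles together. Neural stem cells and astrocytes have no presynaptic terminals, but they use relatives of the same proteins for constitutive and regulated secretion and for endosomal traffic.

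In PTN cells 7 genes of the release machinery were higher and 2 were lower. Those higher were the calcium-sensing synaptotagmin gene Syt6, the related Syt4 and Syt17, the synaptoporin gene Synpr, the complexin gene Cplx2, the priming factor gene Unc13b and the active zone gene Rimbp2, by 1.96-fold to 5.51-fold. Syt12 and Syt15 were 4.96-fold and 3.92-fold lower. In all, 7 of the 45 measured members rose and 2 fell, while 36 were not called. A call means a Benjamini-Hochberg adjusted p below 0.05 over all 13161 tested genes in the quasi-likelihood test of edgeR. Of all tested genes 7.99% were called, 4.93% higher and 3.06% lower, against 15.6% of the members higher and 4.44% lower. The median log2 fold change was 0.24 over the members and 0.03 over all tested genes. Positive values stood in 28 members and negative ones in 17, against 6915 and 6246 of all tested genes. Syp, Snap25, Syt1, Syn1 and Bsn, genes widely used as signs of a neuronal synapse, were not among the members called. Their log2 fold changes were -0.03, 1.35, -0.39, 0.34 and -0.09 in that order, with few counts for Snap25 and Syt1.

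The promoters of Syt6, Synpr and Cplx2 are shown because these members rose in each of the 18 fits made, the main one and its alternatives. The windows run from 250 bases before to 50 after the annotated start of the gene, as given by RefSeq for GRCm38.p6, and the first window listed is used (of 3 for Syt6, 2 for Synpr and 1 for Cplx2). They lie at chr3:103574995-103575294 for Syt6, chr14:13284530-13284829 for Synpr and chr13:54302306-54302605 for Cplx2, all on the plus strand. Capitals mark GGGCGG, known as the GC box, and CACGTG, a form of the E-box, on either strand.
Syt6: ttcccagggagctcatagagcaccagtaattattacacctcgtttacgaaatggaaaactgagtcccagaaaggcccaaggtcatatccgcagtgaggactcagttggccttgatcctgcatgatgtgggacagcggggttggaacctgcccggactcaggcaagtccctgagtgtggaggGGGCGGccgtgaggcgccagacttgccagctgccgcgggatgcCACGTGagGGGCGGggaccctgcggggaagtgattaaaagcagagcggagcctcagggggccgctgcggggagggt
Synpr: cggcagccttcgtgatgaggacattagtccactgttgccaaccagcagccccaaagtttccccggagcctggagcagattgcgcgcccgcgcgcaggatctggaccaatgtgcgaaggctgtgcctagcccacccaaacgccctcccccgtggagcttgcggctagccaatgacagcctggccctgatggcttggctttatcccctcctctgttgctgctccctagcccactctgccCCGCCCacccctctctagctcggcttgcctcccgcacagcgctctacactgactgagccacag
Cplx2: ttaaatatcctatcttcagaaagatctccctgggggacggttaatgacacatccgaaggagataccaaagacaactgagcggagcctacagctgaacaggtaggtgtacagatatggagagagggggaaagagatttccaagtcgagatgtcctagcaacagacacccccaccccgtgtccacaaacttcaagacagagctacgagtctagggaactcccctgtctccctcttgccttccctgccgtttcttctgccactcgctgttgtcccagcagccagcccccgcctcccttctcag
The Syt6 window held 2 GC boxes and 1 CACGTG, the Synpr window 1 GC box on the minus strand, and the Cplx2 window neither. CG pairs numbered 16, 16 and 9 in the same order, against a median of 7 over all 32851 promoter windows. GGGCGG stood in 35.7% of all windows and CACGTG in 7.15%. The TATA box TATAAA (13.6% of all windows) and TTCAGCACC, the left part of the element bound by the neuronal gene repressor REST (0.371%), were searched on both strands as well and stood in none of the 3. No searched motif was shared by the 3 windows. A match is a description of the letters in the window and not a site of binding. RefSeq windows were matched for 39 of the 56 members.

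Depth was alike in the groups, with 19267765 to 25975199 counts per PTN library and 21268287 to 26341733 per Control library. Mitochondrial genes took 8.12%, 8.10% and 3.97% of the counts in PTN 1, PTN 2 and PTN 3. In Control 1, Control 2 and Control 3 they took 4.47%, 7.47% and 5.76%. The libraries separated by group on the first principal component, which held 52.3% of the variance. Among the PTN libraries, PTN 3 lay lowest on the second component and had the lowest Y-linked RNA, 7.96 CPM (counts scaled by library size) against 30.3 and 74.2 in the other PTN libraries and 49.3 to 102 in the Control libraries. Without PTN 3, 10 members were called higher and 3 lower. That fit called 2177 of all 13320 genes it tested, against 1052 of 13161 with all 6 libraries. The progenitor genes Nes, Sox2, Vim and Fabp7 were measured in every library, and the 10 listed progenitor markers summed to 8324 to 9418 CPM in PTN and 6160 to 7006 CPM in Control cells. Vim was the largest part of that sum, at 4978 to 5439 CPM in PTN and 3381 to 3527 CPM in Control cells. The progenitor markers did not move one way, PTN lying wholly above Control in 2 and wholly below in 2. The 11 listed neuron markers summed to 428 to 690 CPM in PTN and 390 to 521 CPM in Control cells, Map2 making up most of it. Elavl3 was the 1 neuron marker called (edgeR adjusted p = 0.0485), at 31.9, 25.1 and 29.2 CPM in PTN and 15.9, 19.8 and 19.1 CPM in Control cells. The neuron markers did not move one way, PTN lying wholly above Control in 2 and wholly below in 2. Those below were Tubb3, at 21.6, 10.3 and 20.9 CPM in PTN and 32.0, 26.9 and 29.6 CPM in Control cells, and Ina, at 3.92, 4.46 and 2.65 CPM in PTN and 7.06, 6.5 and 6.32 CPM in Control cells, neither called. Dcx, the marker of young neurons, lay at 1.46 to 7.58 CPM in PTN and 2.58 to 5.16 CPM in Control cells, and Rbfox3, that of mature neurons, at 0.815 to 1.25 CPM in PTN and 0.229 to 0.608 CPM in Control cells. Of 8 astrocyte markers 3 fell and 0 rose, and the sum of all 8 was 4517 to 7508 CPM in PTN and 9767 to 9849 CPM in Control cells. Gfap alone was at 342 to 1685 CPM in PTN and 3601 to 3740 CPM in Control cells. The astrocyte markers did not move one way either. PTN lay wholly below Control in 4 and wholly above in 2, Slc1a3 and S100b, neither called. Fewer cells of a type and less RNA per cell cannot be told apart in these bulk samples, and the part of either in the results below was not tested. Of the progenitor markers 2 rose and 1 fell. Vim, which rose, and Gfap, which fell, were near the threshold (edgeR adjusted p = 0.0482 and 0.047). Whether the marker calls held in the alternative fits was not tested. Of the tested markers of other cell types, 2 of 7 for the oligodendrocyte lineage, 1 of 5 for endothelial and mural cells and 1 of 4 for fibroblasts and meninges fell and 0 rose, while 0 of 3 for ependyma and choroid plexus and 0 of 1 for microglia were called. The microglia list summed to 2.6 to 2.99 CPM in PTN and 1.99 to 3.78 CPM in Control cells.

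Level per length was compared on the deposited FPKM (fragments scaled by gene length and library depth). Syt11 stood far above all other members, at 265, 321 and 317 FPKM in PTN cells and 209, 231 and 230 FPKM in Control cells. Syt11, a synaptotagmin that does not bind calcium and is found on vesicles of neurons and glia, made up 55.9% to 61.4% of the summed FPKM of all members in the PTN libraries and 53.6% to 57.2% in the Control libraries. In PTN cells Cplx2 (38.4 ± 3.45 FPKM, SD, n = 3) and Syngr2 (21.2 ± 5.05 FPKM) came next. In Control cells Syngr2 (33.02 ± 2.63 FPKM) stood above Cplx2 (17.2 ± 1.39 FPKM), the reverse order, with values that did not overlap between the genes in either group. Stxbp3, Sv2a and Syngr1 had means between 8.15 and 13.3 FPKM in PTN and between 8.80 and 11.5 FPKM in Control cells. Those 3 overlapped one another, except that the PTN values of Syngr1 lay wholly below those of Stxbp3 and Sv2a. Of the 45 measured members 6 averaged at least 10 FPKM in PTN and 5 in Control cells, and 13 and 15 averaged under 1 FPKM. Syt6 was ninth in order of level in PTN cells, at 8.31 ± 1.92 FPKM, and stood at 1.65 ± 0.259 FPKM in Control cells.

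**Figure D1:**
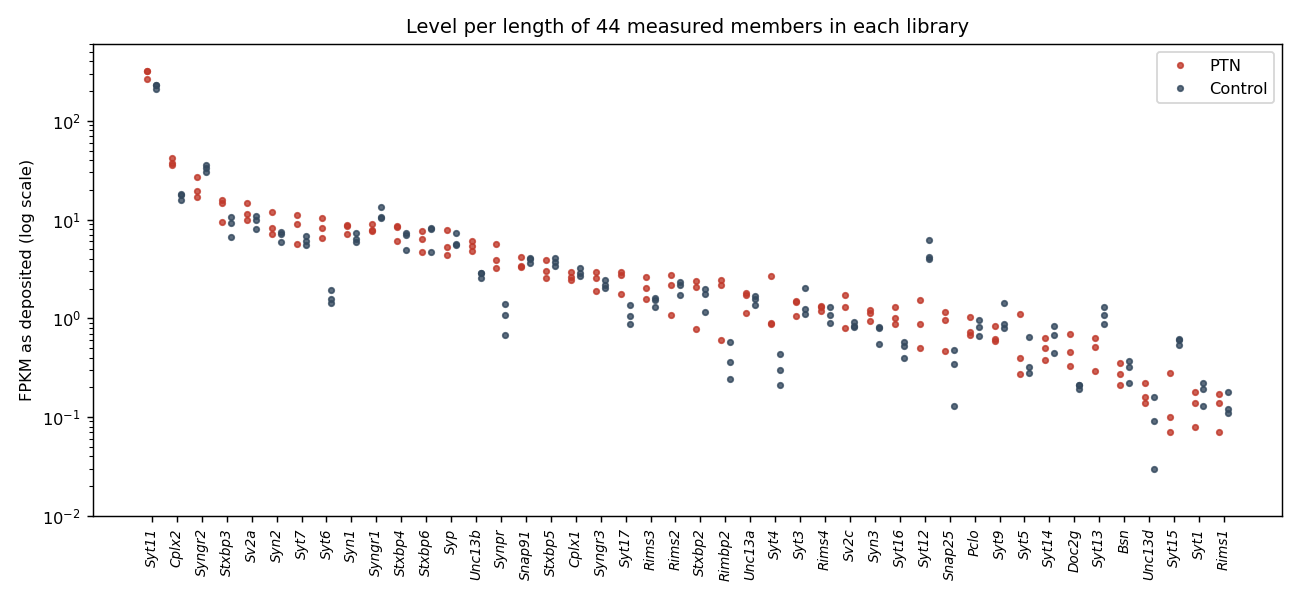
FPKM as deposited (log axis) of 44 measured members in each PTN library (red) and each Control library (dark blue), ordered by the PTN mean. Syt11 stands above all others in both groups, and the PTN points of Syt6 (6.48 to 10.31 FPKM) and Synpr (3.25 to 5.62 FPKM) stand clear of their Control points (1.44 to 1.94 and 0.68 to 1.38 FPKM).

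Calcium-sensing synaptotagmins trigger fusion when calcium rises. Of 8 genes in this group 6 were measured, 1 rose and 0 fell. Syt6, which belongs with Syt3 and Syt10 to a disulfide-linked class and is known for its part in the acrosome reaction of sperm, was counted 1140, 594 and 676 times in PTN cells (replicates 1 to 3 in order, here and below) and 140, 181 and 180 times in Control cells. These were 44.2, 26.5 and 35.2 CPM in PTN cells and 5.92, 6.92 and 8.42 CPM in Control cells. The lowest PTN library was thus still 3.14-fold above the highest Control library, the widest such gap among the members that rose. Syt6 was 4.98-fold higher (log2 fold change 2.32 ± 0.24 SE, edgeR adjusted p = 0.00187). Its relative Syt3 was at 2.68, 3.66 and 2.96 CPM in PTN and 4.44, 3.13 and 2.34 CPM in Control cells, overlapping values with a log2 fold change of -0.09 ± 0.30 (SE). Syt10 stayed at 0 to 7 counts and Syt2, a fast sensor of brainstem and motor synapses, at 3 to 6 counts per library, so neither was tested.

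Syt7, the slow and high-affinity sensor that also serves lysosome exocytosis outside neurons, reached 22.31, 35.49 and 37.55 CPM in PTN and 24.94, 17.62 and 19.75 CPM in Control cells. PTN 1 lay within the Control values, and the log2 fold change of 0.61 ± 0.23 (SE) was not called (edgeR adjusted p = 0.136). Syt1, the main fast sensor of forebrain synapses, was near the lower limit of detection, with 22, 15 and 7 counts in PTN and 14, 27 and 19 counts in Control cells. Syt9 had 2.29, 2.23 and 3.17 CPM in PTN and 4.61, 3.06 and 3.32 CPM in Control cells. The values of Syt1 and of Syt9 overlapped between the groups, and their log2 fold changes of -0.39 ± 0.43 and -0.52 ± 0.28 (SE) were not called.

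The other synaptotagmins, most of which lack the residues that bind calcium, held 4 of the 9 calls. Of 9 genes 8 were measured, 2 rose, 2 fell and 4 were not called. Syt4, an activity-induced synaptotagmin of dense-core and postsynaptic vesicles in neurons, was at 10.6, 3.43 and 3.38 CPM in PTN and 0.803, 1.68 and 1.17 CPM in Control cells. PTN 1 was about 3.12-fold above the lowest PTN library, and all PTN values lay above the Control ones. The rise was 4.74-fold (log2 fold change 2.25 ± 0.51 SE, edgeR adjusted p = 0.0333). Without PTN 1 the log2 fold change of Syt4 was 1.48 (edgeR adjusted p = 0.08), and without Control 1, Control 2 and Control 3 its edgeR adjusted p was 0.131, 0.0618 and 0.116. Syt17, a peripheral protein of the Golgi and early endosomes, had 4.39, 7.18 and 6.5 CPM in PTN and 2.16, 3.4 and 2.57 CPM in Control cells. The groups were apart by a narrow margin, PTN 1 being 1.29-fold above Control 2. Syt17 was 2.21-fold higher (log2 fold change 1.15 ± 0.28 SE, edgeR adjusted p = 0.0422). Leaving out PTN 2, Control 1, Control 2 or Control 3 gave Syt17 an edgeR adjusted p of 0.0889, 0.17, 0.0814 or 0.161.

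Syt12, a phosphoprotein of synaptic vesicles that does not bind calcium, moved the other way. It had 81, 40 and 105 counts in the PTN libraries, against 522, 374 and 318 in the Control libraries, or 3.14, 1.78 and 5.46 CPM in PTN and 22.1, 14.3 and 14.9 CPM in Control cells. Every Control library was at least 2.62-fold above the highest PTN library. Syt12 was 4.96-fold lower (log2 fold change -2.31 ± 0.38 SE, edgeR adjusted p = 0.00922). Syt15 was lower too, with 22, 6 and 7 counts in PTN and 47, 51 and 44 counts in Control cells. The Control libraries lay close together and PTN 1 was the highest of the PTN libraries. Its log2 fold change was -1.97 ± 0.44 (SE, edgeR adjusted p = 0.0314), but the adjusted p was 0.054, 0.1, 0.0857 and 0.0978 without PTN 2, Control 1, Control 2 and Control 3. Without PTN 1 the log2 fold change of Syt15 was -2.65.

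Syt16 and Syt13 had groups that did not overlap but were not called. Syt16 had 4.39, 3.48 and 2.96 CPM in PTN and 1.31, 1.95 and 1.87 CPM in Control cells (log2 fold change 1.08 ± 0.29 SE, edgeR adjusted p = 0.0551). Syt13 had 2.41, 1.07 and 1.92 CPM in PTN and 4.9, 3.29 and 4.07 CPM in Control cells (log2 fold change -1.18 ± 0.34 SE, edgeR adjusted p = 0.0685). Both missed the threshold by a small amount, and DESeq2's Wald test called them at adjusted p = 0.0185 and 0.0207. Without PTN 3 Syt16 was called by edgeR (log2 fold change 1.20, adjusted p = 0.0323), while Syt13 was not (adjusted p = 0.0569). Syt11, the most abundant member, was at 1057, 1270 and 1245 CPM in PTN and 812, 934 and 909 CPM in Control cells. All PTN values lay above the Control ones, but the log2 fold change of 0.43 ± 0.15 (SE) had an edgeR adjusted p = 0.119. DESeq2's Wald test called Syt11 at adjusted p = 0.0396. Of all 45 members 17 had groups that did not overlap, against 32.9% of all tested genes. PTN lay wholly above in 13 of these members and wholly below in 4, against 15.7% and 17.1% of all tested genes.

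**Figure D2:**
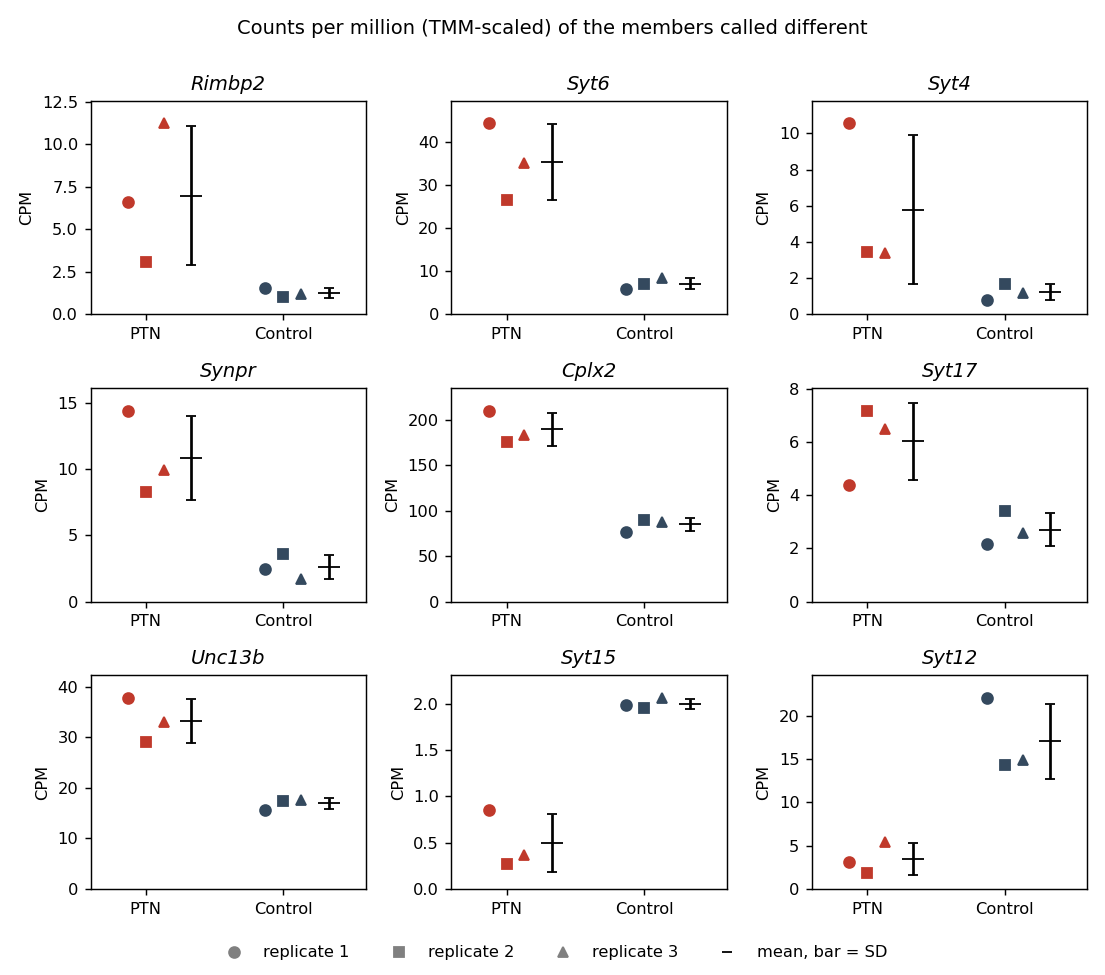
CPM of the 9 called members in each library, with PTN (red) left of Control (dark blue), the replicate number by symbol, and the mean with its SD (black). In Syt4 the SD of the PTN group rests on PTN 1 at 10.6 CPM, and in Rimbp2 the PTN libraries spread over 3.08 to 11.2 CPM, while the PTN values of Cplx2 stay between 175 and 210 CPM.

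Proteins that span the vesicle membrane were measured in 7 of 9 genes, of which 1 rose and 0 fell. Synpr encodes synaptoporin, a relative of synaptophysin known from hippocampal mossy fibre terminals. It was at 14.4, 8.25 and 9.93 CPM in PTN and 2.49, 3.55 and 1.73 CPM in Control cells. The lowest PTN library stood 2.32-fold above the highest Control library. Synpr was 4.16-fold higher (log2 fold change 2.06 ± 0.32 SE, edgeR adjusted p = 0.00759). Syp, the gene of synaptophysin itself, was at 10.98, 12.8 and 13.6 CPM in PTN and 14.2, 12.1 and 11.8 CPM in Control cells. Its groups overlapped, with a log2 fold change of -0.03 ± 0.17 (SE).

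Syngr2, the synaptogyrin of non-neuronal cells, had 29.2, 25.1 and 40.7 CPM in PTN and 53.4, 46.5 and 49.2 CPM in Control cells. All PTN values lay below the Control values, PTN 3 being nearest to them. The log2 fold change of -0.65 ± 0.19 (SE) was not called (edgeR adjusted p = 0.0759), but without PTN 3 it was -0.87 with an edgeR adjusted p = 0.0129. Sv2a, the vesicle glycoprotein that binds the antiepileptic levetiracetam, was at 49.1, 42.6 and 64.4 CPM in PTN and 46.9, 35.3 and 42.9 CPM in Control cells, which overlap. Its log2 fold change of 0.32 ± 0.19 (SE) was not called. Syngr1, Syngr3 and Sv2c were also not called, while Syngr4 and Sv2b stayed under the count minimum. Sv2c was called higher in the fit without PTN 3.

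Synapsins, which tie reserve vesicles to one another and to actin, were all measured, and 0 of 3 were called. Their log2 fold changes were positive, between 0.33 and 0.63. Syn1 had 23.3, 27.8 and 28.8 CPM in PTN and 23.3, 19.4 and 20.2 CPM in Control cells, PTN 1 being level with Control 1 (edgeR adjusted p = 0.206). Syn2 had 23.7, 37.6 and 26.3 CPM in PTN and 25.2, 24.5 and 19.9 CPM in Control cells, PTN 1 lying within the Control values (edgeR adjusted p = 0.319). Snap25, the neuronal SNARE on the plasma membrane, was scarce, with 44, 33 and 13 counts in PTN and 5, 17 and 14 counts in Control cells. PTN 3 lay just above the Control values once scaled, at 0.676 CPM against 0.655 CPM in Control 3. The log2 fold change of 1.35 ± 0.52 (SE) was not called (edgeR adjusted p = 0.142). Snap91, the clathrin adaptor AP180 that retrieves vesicle membrane, was at 13.4, 11.8 and 10.1 CPM in PTN and 11.03, 12.6 and 12.6 CPM in Control cells, with a log2 fold change of -0.03 ± 0.18 (SE).

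None of the 6 syntaxin-binding proteins was called (edgeR, with 1 of them at an unadjusted p under 0.05 and 0 called by DESeq2's Wald test). Stxbp3, known for its part in glucose transporter traffic, was at 38.2, 35.0 and 22.8 CPM in PTN and 15.8, 25.2 and 21.7 CPM in Control cells. PTN 3 lay within the Control values, and the log2 fold change of 0.61 ± 0.24 (SE) was not called (edgeR adjusted p = 0.151). Stxbp4, a syntaxin-binding protein of insulin-regulated traffic, had 40.5, 46.2 and 29.8 CPM in PTN and 23.4, 36.7 and 30.4 CPM in Control cells. Its groups overlapped through PTN 3 as well (edgeR adjusted p = 0.302). Without PTN 3 Stxbp3 was called, with a log2 fold change of 0.81 and an edgeR adjusted p = 0.0342.

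Complexins were measured in 2 of 4 genes, and 1 rose. Cplx2 had 5411, 3931 and 3525 counts in the PTN libraries, against 1813, 2363 and 1872 in the Control libraries. This was 210, 175 and 183 CPM in PTN and 76.6, 90.3 and 87.6 CPM in Control cells, and the PTN libraries lay within 1.2-fold of one another, the least spread of any called member in PTN cells. Cplx2 was 2.23-fold higher (log2 fold change 1.16 ± 0.15 SE, edgeR adjusted p = 0.00399). Cplx1, the main complexin of forebrain inhibitory and brainstem synapses, was at 5.78, 5.31 and 6.45 CPM in PTN and 7.02, 5.89 and 6.18 CPM in Control cells. Its groups overlapped and its log2 fold change was -0.12 ± 0.19 (SE). Cplx3 reached 1 count in a single Control library, and Cplx4 had 0 counts in all 6, both being complexins of the retina.

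Priming and other C2-domain factors were measured in 4 of 8 genes, with 1 higher and 0 lower. Unc13b encodes Munc13-2, which opens syntaxin for SNARE assembly and also has a form found outside neurons. It had 37.8, 29.03 and 33.03 CPM in PTN and 15.6, 17.5 and 17.7 CPM in Control cells. The groups were far apart relative to their spread. Unc13b was 1.96-fold higher (log2 fold change 0.97 ± 0.16 SE, edgeR adjusted p = 0.00985, but 0.0594 without Control 3). Unc13a, the Munc13-1 of most forebrain synapses, was at 11.3, 12.1 and 16.3 CPM in PTN and 11.96, 9.86 and 11.7 CPM in Control cells, and its log2 fold change of 0.24 ± 0.20 (SE) was not called. Doc2g had 17, 11 and 14 counts in PTN and 7 in each Control library. At so few counts its log2 fold change of 1.06 ± 0.41 (SE) was not called (edgeR adjusted p = 0.142). Rph3a, the Rab3 effector rabphilin, was under the count minimum and was not tested, with 0, 0 and 1 counts in PTN and 11, 7 and 5 counts in Control cells.

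All 7 genes of the active zone scaffold were measured, 1 rose and 0 fell. Rimbp2 encodes a protein that links RIM to presynaptic calcium channels. It was at 6.6, 3.08 and 11.2 CPM in PTN and 1.56, 0.994 and 1.22 CPM in Control cells. PTN 3 was the highest library and 3.65-fold above PTN 2, and every PTN value lay above the Control values. Rimbp2 was 5.51-fold higher (log2 fold change 2.46 ± 0.46 SE, edgeR adjusted p = 0.0164). Leaving out Control 1, Control 2 or Control 3 gave Rimbp2 an edgeR adjusted p of 0.0567, 0.0611 or 0.0682. On the deposited FPKM scale PTN 2 and Control 2 were nearly level, at 0.6 and 0.58, and limma on log2(FPKM + 0.5) gave an adjusted p = 0.07.

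The other scaffold genes had log2 fold changes between -0.17 and 0.23, and none was called. Rims2 was at 9.51, 11.8 and 4.68 CPM in PTN and 7.27, 10.1 and 9.36 CPM in Control cells, PTN 2 being above and PTN 3 below all Control libraries. Rims3 was at 9.24, 10.1 and 10.7 CPM in PTN and 9.42, 7.8 and 8.33 CPM in Control cells. Bsn and Pclo, the giant scaffold proteins bassoon and piccolo, were at 3.38 to 5.04 and 9.78 to 15.6 CPM in PTN and at 3.42 to 5.83 and 9.3 to 14.04 CPM in Control cells. The 11 members under the count minimum were Cplx3, Cplx4, Syt2, Syt8, Syt10, Doc2a, Doc2b, Rph3a, Unc13c, Sv2b and Syngr4, at 0 to 17 counts per library.

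**Figure D3:**
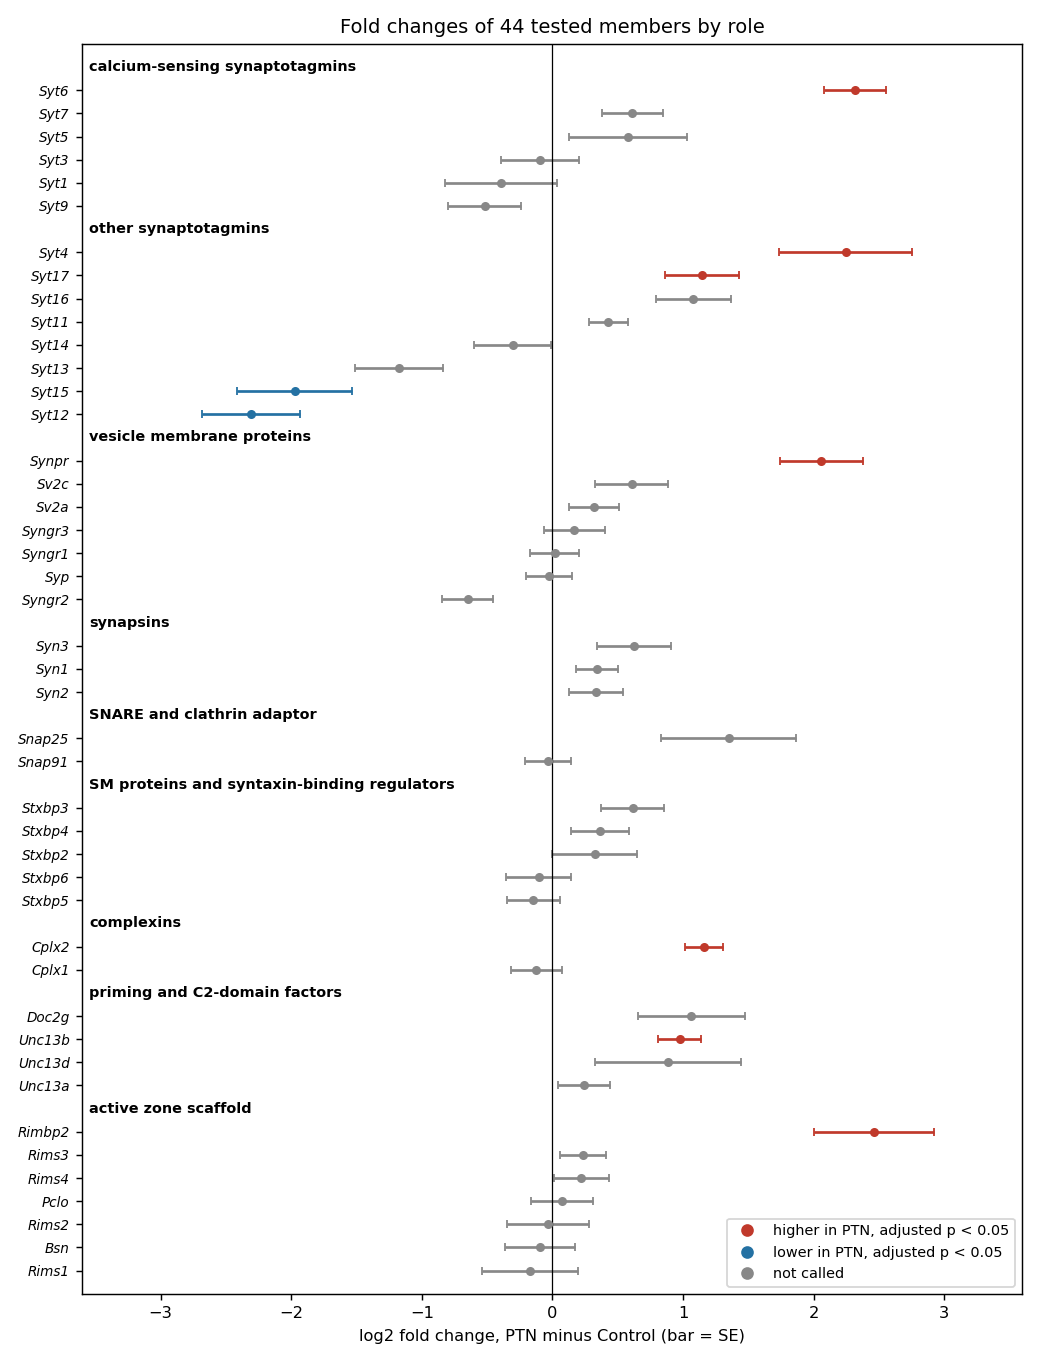
Log2 fold change (PTN minus Control, bars are SE) of 44 tested members, grouped by role, with members higher in red, lower in blue and not called in grey. The called members are spread over 6 of the 9 groups, and the synapsins, the SNARE and clathrin adaptor pair and the syntaxin-binding proteins have none.

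Of the 7 members that rose, 5 were highest in PTN 1, 1 in PTN 2 (Syt17) and 1 in PTN 3 (Rimbp2). The same count over all genes called higher was not made, so this order is not shown to be particular to the members. PTN 1 also lay farthest from Control on the first principal component, at -47.6 against -31.6 for PTN 2 and -21.1 for PTN 3. The neuron markers summed to 659, 690 and 428 CPM in PTN 1, PTN 2 and PTN 3 and to 390, 521 and 466 CPM in Control 1, Control 2 and Control 3, and their part in these rises was not tested. With any trend of counts on gene length taken out library by library, the same 9 members were called. The log2 fold changes of Cplx2 and Unc13b were then 0.97 and 0.73, against 1.16 and 0.97 in the main fit. Those of Syt12, Syt15 and Syt17 did not shrink. Syt6, Cplx2, Synpr and Syt12 passed in each of the 18 fits.

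**Figure D4:**
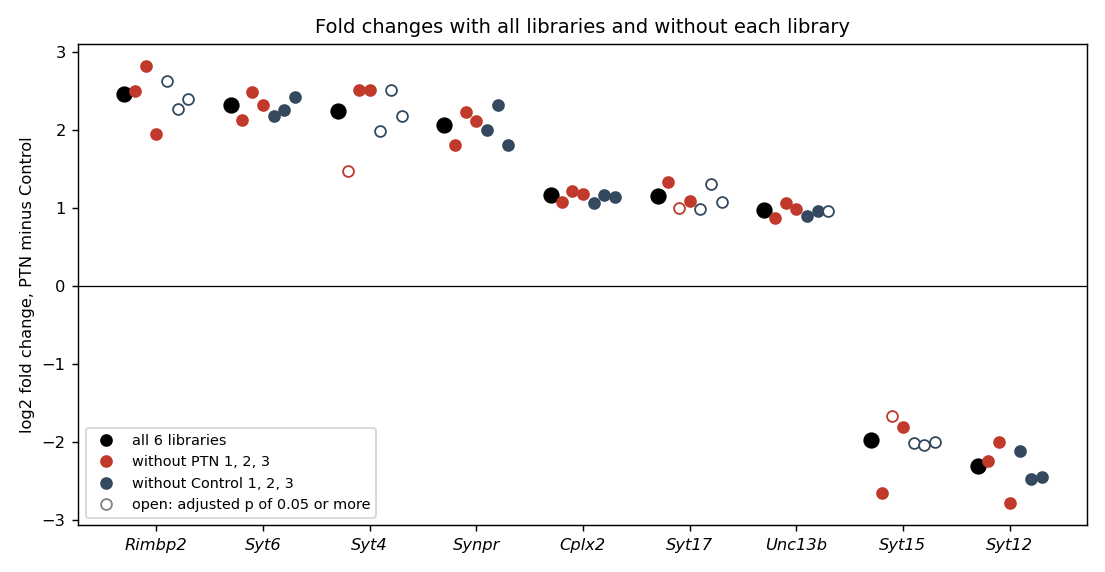
Log2 fold change (PTN minus Control) of the 9 called members with all 6 libraries (black) and without each PTN library (red) or each Control library (dark blue) in turn, open circles standing for an adjusted p of 0.05 or more. Syt6, Synpr, Cplx2 and Syt12 have filled circles throughout, and Syt4 has its lowest value, 1.48, without PTN 1.

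Other genes of the presynaptic terminal were taken from 6 lists. Of 111 tested list entries 9 were higher and 1 was lower in PTN cells, a share near the 7.99% called of all tested genes (4.93% higher and 3.06% lower). The SNAREs and their disassembly factors had 0 of 21 called (edgeR, with Stx7 at the smallest p, log2 fold change 0.42 ± 0.16 SE, adjusted p = 0.135), at a median log2 fold change of 0.05. In synaptic vesicle endocytosis 1 of 26 rose and 0 fell, at a median of -0.01. That gene was Pacsin1, the neuronal syndapin that couples dynamin to actin. Pacsin1 was at 26.2, 24.4 and 27.4 CPM in PTN and 8.5, 7.42 and 7.77 CPM in Control cells. It was 3.29-fold higher, with narrow groups far apart (edgeR adjusted p = 0.00171).

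In the Rab3, Rab27 and vesicle traffic list 2 of 19 rose, at a median log2 fold change of -0.16. Sytl2, a Rab27 effector that docks secretory granules and melanosomes, was at 40.3, 35.0 and 20.2 CPM in PTN and 5.07, 9.79 and 7.58 CPM in Control cells, 4.25-fold higher (edgeR adjusted p = 0.00686). Rab3d, a granule GTPase of secretory cells, was 1.86-fold higher (edgeR adjusted p = 0.0412). Among active zone partners and calcium channels 3 of 19 rose, at a median of 0.32. These were the presynaptic adaptor gene Apba1 (2.02-fold, edgeR adjusted p = 0.0192), its partner Cask (1.79-fold, 0.0362) and the calcium channel subunit gene Cacna2d3 (2.58-fold, 0.0449).

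Of 12 tested genes of transmitter loading and the proton pump 2 rose, at a median of 0.02. Gad1, which makes GABA, was at 3.96, 4.32 and 3.9 CPM in PTN and 1.44, 1.57 and 2.34 CPM in Control cells (edgeR adjusted p = 0.0342). On the deposited FPKM scale its groups overlapped, at 1.22, 1.43 and 1.18 in PTN and 0.51, 0.58 and 1.73 in Control cells. Over the alternatives that kept all libraries the log2 fold change of Gad1 ranged over 0.399 to 1.22. Slc17a7, the vesicular glutamate transporter VGLUT1, rested on 12, 24 and 14 counts in PTN and 5, 3 and 5 in Control cells (edgeR adjusted p = 0.0499). Slc17a7 lost the call in each of the 16 alternative fits that tested it, at adjusted p between 0.0501 and 0.169. Among 14 tested genes of dense-core granules 1 rose and 1 fell, at a median of 0.08. Chgb, the granule core protein chromogranin B, was at 6.17, 11.01 and 5.88 CPM in PTN and 24.1, 30.6 and 26.1 CPM in Control cells, 3.5-fold lower (edgeR adjusted p = 0.0064). Cadps, the granule priming factor CAPS1, was at 111, 103 and 102 CPM in PTN and 55.8, 66.2 and 68.0 CPM in Control cells, 1.66-fold higher (edgeR adjusted p = 0.0179). Of these 10 genes Pacsin1, Sytl2 and Chgb were called in each of the fits that left out 1 library, and the other 7 lost the call in at least 4 of the 6. With the length trend removed 5 of the 10 were called (Gad1, Sytl2, Pacsin1, Chgb and Cadps), and with the replicate number as a block 4 were.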

How the data were processed

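RNA was isolated with an RNeasy kit and libraries were made with a SMARTER mRNA kit, per the labels' protocols. No source used here names the aligner, counting program, genome build, annotation or strandedness, so overlapping genes cannot be told apart. The values deposited by the authors are expected counts and FPKM, 1 of each per gene and library. Expected counts are given unscaled as deposited, and between 91.95% and 92.81% per library are whole within 0.005. They were rounded, and 8 of the 56 members had fractional values, Cplx2 and Syt6 among the called ones. Columns were matched to samples by group letter and replicate number.

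After edgeR's filterByExpr 13161 of 22322 genes remained, and libraries were scaled by TMM (factors 0.993 to 1.01). PTN was compared with Control by edgeR's quasi-likelihood test (edgeR 4.0.16, R 4.3.3) with no covariate, calling at an adjusted p under 0.05. SE is the log2 fold change divided by the square root of F. 1 CPM stands for 19.3 to 26.3 counts. The test was also run on simulated counts drawn independently for each gene and library. Differences that many genes share in a library were not simulated, so no conclusion on these data is drawn from it. Members and lists were chosen with earlier results of these data known. Named were every called member and, in each role group, the 2 uncalled members of highest FPKM. Also named were uncalled members whose groups did not overlap and whose fitted change was at least 2-fold. Up to 4 called genes per other list were named too. Syp, Syngr1, Stxbp4, Bsn and Pclo were named after their values were seen, and 1 measured member, kept in all counts, is not reported here. The 2 groups of calcium-sensing synaptotagmins were joined, because the names Syt5 and Syt9 are used differently between naming schemes. Alternatives were other scalings and filters, DESeq2 1.42.0, limma-voom (limma 3.58.1), a replicate block, a length trend, other thresholds and leaving out each library. Limma on log2(FPKM + 0.5) was added after seeing the data.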

Additional observations from a re-analysis of the deposited data

How the results depend on the processing

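Over 6 scalings and filters, the length trend, the replicate block and DESeq2's Wald test the 9 called members were called in each fit, while limma-voom lost Syt4 (adjusted p = 0.0546), and limma on log2(FPKM + 0.5) lost Syt4 (0.0556) and Rimbp2 (0.07). Requiring a 2-fold change as well lost Unc13b. DESeq2's Wald test called 1908 of all tested genes and 4 members lower, and an adjusted p under 0.1 called 1913 and 4. The 2-fold requirement left 636 of the 1052 calls. Without each library in turn the calls ranged over 331 to 2177 for all genes, 3 to 10 for members higher, 1 to 3 for members lower and 3 to 15 for the other presynaptic lists, and the members' median log2 fold change over 0.13 to 0.33. A fit with 1 library fewer has fewer residual degrees of freedom. The other lists had 10 genes called, but 4 with the replicate block, 5 with the length trend removed and 5 by limma on FPKM, which gave a members' median of 0.16. Deviations from the group mean correlated at -0.51, 0.36 and -0.005 for same-numbered libraries, and at -0.59 to 0.49 for the others. Deviations from a mean of 3 libraries are bound to each other, so these values cannot decide whether the numbers pair the samples. The main fit had no block because the labels name no batch. The replicate block left 726 calls with the 9 members among them. The median over all tested genes was 0.03, but -0.015 with upper-quartile scaling, and ranged over -0.0072 to 0.028 without single libraries. Unc13a turned to -0.035 with the length trend removed. Without single libraries the log2 fold change of Syt3 ranged over -0.33 to 0.15, that of Rims2 over -0.32 to 0.26 and that of Snap91 over -0.14 to 0.065, none of them called in any fit. The cause of these changes was not tested. Snap25, Syt1 and Doc2g rest on 5 to 44 counts per library.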

Other observations

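Related members were set against each other within each library, as ratios of deposited FPKM, for 4 pairs chosen after their values were seen. Cplx2 over Cplx1 was 16.1, 14.7 and 12.6 in PTN cells (replicates 1 to 3 in order) and 4.86, 6.82 and 6.29 in Control cells. Syt6 over Syt3 was 9.73, 4.41 and 5.43 in PTN and 0.713, 1.26 and 1.75 in Control cells. Unc13b stood above Unc13a in both groups, at 5.36, 2.76 and 2.98 in PTN and 1.66, 2.15 and 1.73 in Control cells. Synpr over Syp was 1.29, 0.419 and 0.743 in PTN and 0.198, 0.245 and 0.0942 in Control cells, so Synpr exceeded Syp in PTN 1 alone among these 6 libraries. In each pair the first gene is a member called higher and the second one not called, so the ratios describe those calls on the FPKM scale and are no further test of them.

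The deposited count divided by the deposited FPKM, scaled by the library total, gives the gene length that the authors' FPKM implies in each library. This measure, chosen after seeing the data, was compared over 10730 genes with at least 1 FPKM and 50 counts in every library, 23 of them members. Limma called 0 genes at an adjusted p under 0.05, with 722 of all genes and 2 of the members at an unadjusted p under 0.05. Syngr1 had the widest gap among the members, with implied lengths of 1.71, 2.07 and 1.86 kb in PTN and 1.37, 1.31 and 1.29 kb in Control cells (log2 ratio 0.50 ± 0.08 SE, limma adjusted p = 0.334). Its counts overlapped between the groups, at 346, 354 and 324 in PTN and 430, 362 and 288 in Control cells, while its FPKM did not, at 7.76, 7.65 and 9.03 in PTN and 13.4, 10.45 and 10.55 in Control cells. The implied lengths of Syt6 (4.1 to 4.31 kb in PTN and 4.16 to 4.37 kb in Control cells) and Cplx2 (4.91 to 4.93 and 4.92 to 4.96 kb) overlapped.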
